A study of Mus musculus with 20 samples.

Results

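Small nucleolar RNAs (snoRNAs), spliceosomal small nuclear RNAs (snRNAs) and small Cajal body RNAs (scaRNAs) were examined in the RNA of mouse bone marrow-derived macrophages. Members were the rows of the gene table whose gene type in GENCODE M21 was snoRNA, snRNA or scaRNA. There were 153 of them among 14456 listed genes: 81 typed as snoRNA, 58 as snRNA and 14 as scaRNA. Of all annotated genes of these types, 153 of 2941 (5.2%) were listed, with a median length of 132 bases against 107 bases for those not listed. Within a type the gap was smaller, at 132 against 127 for snoRNA, 116 against 107 for snRNA and 142 against 130 for scaRNA genes. By name, listed Snora and Rnu genes were not longer than those not listed (132 against 133 and 142.5 against 214.5). Only 11 of 98 annotated Snord genes were listed, and 87 of those 98 are shorter than 100 bases. By contrast 15 of 42 Snora genes and 14 of 51 scaRNA genes were listed. No U3 snoRNA was among the members.

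The macrophages came from the bone marrow of male wild-type C57BL/6J mice (8 weeks old in one place of the study's methods, 8 to 12 weeks in another) and were differentiated with M-CSF for 6 days. In the first experiment they were cultured for 24 h in high glucose (25 mM glucose) or in normal glucose (5.5 mM glucose with 19.5 mM mannitol as an osmotic control), with 4 libraries each. In the second, naive macrophages received PBS (buffer alone), exosomes (small vesicles shed by cells) from normal glucose macrophages (NG-exo) or exosomes from high glucose macrophages (HG-exo) for 24 h, the exosomes at 2000000000 particles per ml, with 4 libraries each. All 5 groups were cultured cells without a genetic change, and each exosome sample used its own exosome preparation. The labels do not say which libraries share a mouse, so p-values measure the spread between libraries, which may be partly technical. The libraries are numbered as in the labels for glucose (1, 3, 5 and 6 in normal glucose, against 1, 2, 4 and 6 in high glucose) and by the 4 shared dates for the exosome arms (1 to 4), in that order below.

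Values are normalized counts, the reads of a gene divided by a size factor of its library, and a member was called by limma on log2 (normalized count + 1) at an adjusted p under 0.05, in the exosome comparisons also with a log2 fold change of at least 0.15 in size. The added 1 pulls the fold changes of members with few counts towards 0. Those of members named for a small p can still be overstated through that choice. Each library held between 34016445 and 56310712 reads on listed genes, and members took between 0.065% and 0.125% of them. All 7 macrophage markers were listed, at 3097 or more normalized counts in each library, whereas none of 3 T and B cell, 3 erythroid or 2 dendritic cell markers was listed. Neutrophil markers (3 of 6 listed) reached at most 89.6 and fibroblast markers (2 of 3 listed) at most 183.

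SnoRNAs guide chemical marks onto ribosomal RNA. Box C/D snoRNAs direct 2′-O-methylation with the methyltransferase fibrillarin, and box H/ACA snoRNAs direct pseudouridylation with dyskerin. ScaRNAs carry the same boxes but stay in Cajal bodies, where they guide marks on snRNAs. The snRNAs U1, U2, U4, U5 and U6 form the core of the major spliceosome, and U11, U12, U4atac and U6atac serve the minor one. Most mouse snoRNAs and scaRNAs lie in introns of other genes and are released from the spliced-out intron, whereas most snRNAs are transcribed from their own promoters. The genomes of rodents also hold many copies of snRNA and snoRNA genes, so that an annotated gene of these types can be a silent copy inside the intron of an active gene.

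The sequences of 8 members are shown, 5′ to 3′, because the results below turn on them. They are the transcript sequences of GENCODE M21 (GRCm38), written as DNA. Gm22513 (chr12:54696782-54696945, plus strand) and Gm24265 (chr5:115489459-115489599, plus strand) were the most abundant numbered snRNA genes, with the sequences of U1 and U4. Capitals mark the letters ATTTNTG, the form of the Sm protein binding site searched for.
Gm22513: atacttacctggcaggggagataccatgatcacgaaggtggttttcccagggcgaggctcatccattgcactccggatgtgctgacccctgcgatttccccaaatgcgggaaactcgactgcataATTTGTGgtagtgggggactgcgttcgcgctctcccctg
Gm24265: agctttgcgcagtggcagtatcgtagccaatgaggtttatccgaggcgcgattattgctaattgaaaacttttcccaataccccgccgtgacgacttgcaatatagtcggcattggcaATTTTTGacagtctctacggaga

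Snord17 (chr2:144265979-144266216, minus strand) and Gm25835 (chr11:69668852-69668995, minus strand) were the most abundant box C/D members. Capitals mark box C (TGATGA within the first 20 bases) and box D (CTGA within the last 15).
Snord17: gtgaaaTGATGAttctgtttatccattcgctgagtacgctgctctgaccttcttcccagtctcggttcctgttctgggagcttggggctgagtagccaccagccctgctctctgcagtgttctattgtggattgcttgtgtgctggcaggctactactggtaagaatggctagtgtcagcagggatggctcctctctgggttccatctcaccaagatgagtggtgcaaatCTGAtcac
Gm25835: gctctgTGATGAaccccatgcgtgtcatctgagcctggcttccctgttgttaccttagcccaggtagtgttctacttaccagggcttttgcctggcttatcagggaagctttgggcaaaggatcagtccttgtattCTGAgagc

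Snora21 (chr11:97781639-97781775, minus strand) is a box H/ACA member that shares its host with a far less abundant one, Scarna13 (chr12:105031075-105031349, minus strand) was the member that passed the test in high glucose, and Snora2b (chr15:98526346-98526482, minus strand) and Gm24771 (chr15:35487400-35487536, plus strand) were those that passed it for HG-exo. Capitals mark ACA at 3 bases from the 3′ end, which Gm24771 lacked in its annotated form.
Snora21: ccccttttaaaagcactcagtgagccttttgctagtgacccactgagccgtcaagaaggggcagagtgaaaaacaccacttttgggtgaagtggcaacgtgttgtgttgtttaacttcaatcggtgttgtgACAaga
Scarna13: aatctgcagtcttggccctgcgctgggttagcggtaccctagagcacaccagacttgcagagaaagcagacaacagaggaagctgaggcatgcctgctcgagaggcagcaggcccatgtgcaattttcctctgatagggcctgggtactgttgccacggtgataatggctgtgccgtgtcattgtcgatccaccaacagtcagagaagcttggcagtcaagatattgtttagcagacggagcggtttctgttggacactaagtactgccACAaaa
Snora2b: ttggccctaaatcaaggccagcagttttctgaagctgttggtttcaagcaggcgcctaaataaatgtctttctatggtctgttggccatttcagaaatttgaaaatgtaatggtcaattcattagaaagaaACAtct
Gm24771: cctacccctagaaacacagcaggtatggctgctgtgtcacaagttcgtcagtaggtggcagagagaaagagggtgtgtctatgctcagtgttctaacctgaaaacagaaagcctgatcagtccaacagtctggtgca

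Read on the sense strand only, both box C and box D stood in these windows in 10 of the 12 box C/D members with a Snord or Snord synonym name, against 20.2% of the 1507 annotated snoRNA genes and 10.5% of all 2941 annotated genes. ACA stood 3 bases from the end in 12 of 15 Snora members and in 31 of the 53 numbered snoRNA members, against 18.3% of annotated snoRNA genes and 10.7% of all annotated genes. ATTTNTG was present in 3 of the 5 Rnu members and in 24 of 53 numbered snRNA members, against 20.5% of annotated snRNA genes and 11.4% of all.

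By name, 53 members were numbered snRNA genes, 53 numbered snoRNA genes, 15 Snora genes, 15 scaRNA genes (Scarna9, typed as snoRNA, included), 12 Snord genes (with Rnu73b, whose RefSeq name is Snord73b) and 5 Rnu genes. Of the 53 numbered snRNA genes, 20 were closest in sequence to Rnu6 and 4 to Rnu6-ps2, 14 to a U1 gene, 7 to the U2 gene Rnu2-10, and 5 matched no named gene. The levels were very unequal. In such bulk RNA, fewer cells that contain an RNA and less of it per cell cannot be told apart. The 26 members that averaged 150 or more normalized counts over the 20 libraries, a limit chosen after the values were seen, held 89.1% of the summed member count, and the first 5 held 50.7%. At the other end 107 members had a mean below 50.

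The U1 copy Gm22513 led with a mean of 7702 normalized counts and 20.8% of the member sum. It lies outside any listed gene and differs from the named U1 gene Rnu1a1 by C60T alone (positions from 1 at the 5′ end, the base of Gm22513 first), yet Rnu1a1 itself was listed at a mean of 21.6. The next U1 copy, Gm24305, differs from Gm22513 by A26G and C60T and had a mean of 504. Since 21 annotated genes are near-identical to Gm22513 (at least 95% identity over at least 90% of its length), reads of these genes may have been split or dropped in counting, and the level of a single U1 gene is uncertain. The same holds for U2, where Gm25939 (mean 928) and Gm25360 (379) differed at 3 positions and 12 annotated genes are near-identical to Gm25939, and for U4, where Gm24265 (1502) and Gm24407 (568) differ by G88A and C99A. In all, 48 of 153 members had such a near-identical annotated gene.

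Among snRNAs of the minor spliceosome, Rnu11 (U11) had a mean of 297 and Rnu12 (U12) of 212. Rnu5g, a U5 gene, had a mean of 14.5. Box C/D members were led by Snord17 (mean 4909.7), Gm25835 (2753), Snord15a (1408) and Gm24339 (346), and Snord118, the U8 snoRNA needed for processing of the large ribosomal subunit RNAs, had a mean of 199. Among snoRNA members with ACA at 3 bases from the 3′ end, Gm26448 (805) and Snora73b (672) stood first. Gm24119, a numbered snoRNA gene with neither that ACA nor box C or D in the windows searched, had a mean of 796. Gm26448 was 89.1% identical to Snora73b over 202 bases, and its host was Rpsa. Of the 15 scaRNAs, 6 were high, with Gm22009 at 1956, Scarna13 at 1463, Scarna2 at 1290.3, Gm25395 at 1180.1, Scarna6 at 1010.3 and Gm22442 at 618, and the other 9 lay between 11 and 73.7. Levels here are counts per gene, not per base, so the order between genes of different length is not an order of molecules.

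To set members beside the gene that holds them, the count per kilobase was compared with that of the exons of the host. A gene on the same strand held 126 members, in 118 cases a protein-coding gene and in 13 a ribosomal protein gene, and 123 had a listed host. The member was denser than the exons of its host in 30 of 123 cases, and in 21 when 99 bases were added on each side of the member to allow for reads that overlap it in part. Over all 123 the median ratio was 0.375. By class, 6 of 12 scaRNAs, 13 of 51 numbered snoRNA genes, 3 of 10 Snord members, 3 of 12 Snora members and 4 of 37 numbered snRNA genes were denser than their host. The members below their host included 19 numbered snRNA genes closest to Rnu6 or Rnu6-ps2 and 11 closest to a U1 gene, for which reads of the host's unspliced RNA and of the member cannot be told apart.

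**Figure D1:**
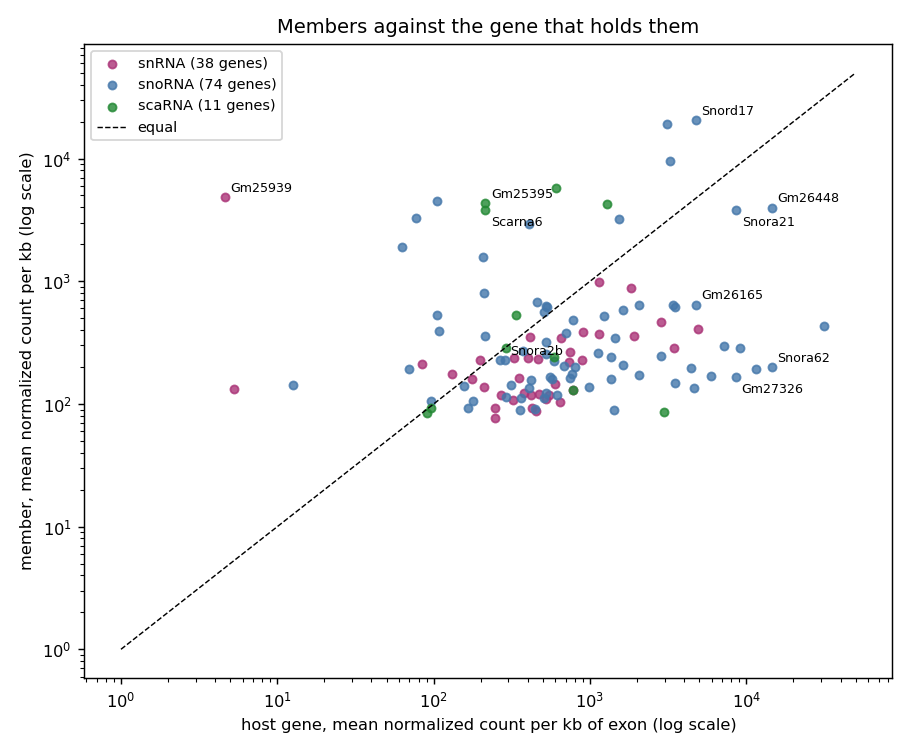
Mean normalized count per kilobase of each of 123 members (vertical, log scale) against that of the exons of the listed gene that holds it (horizontal, log scale), with a dashed line at equality. Members above the line, 30 of 123, include Snord17 and both Atg16l1 members, and most of the rest lie below it.

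There were 7 hosts that held a pair of members, which allowed a comparison inside 1 transcript. In Snx5, Snord17 had 20629 normalized counts per kilobase and Gm26165 643, a ratio of 32.1. In Rpl23, Snora21 had 3839 per kilobase and Gm27326 had 166, a ratio of 23.1. In Rpsa, Gm26448 had 3967 and Snora62 had 199.6, a ratio of 19.9. In Cep295 the ratio of Gm24339 to Scarna9 was 8.63, in Rpl5 that of Gm22270 to Gm26387 was 4.12, and in 2410006H16Rik that of Snord49a to Snord49b was 2.81. The exception was Atg16l1, a gene of the autophagy machinery, whose members Gm25395 and Scarna6 had 4338 and 3813 per kilobase. Both were far denser than the Atg16l1 exons, at 20.3 and 17.8 times. In 6 of the 7 hosts the members thus differed by 2.81 times or more within 1 host transcript, though Snord49a, Snord49b, Scarna9, Gm24339 and Gm27326 are shorter than a read.

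The abundant members rose and fell together from library to library. For each library the median, over the 26 members, of the log2 deviation from the member's own mean was taken. It was 0.70 in NG-exo 1, where all 26 were above their mean and 22 had their highest value, and 0.26 in normal glucose 1 and 0.25 in PBS 4. It was −0.55 in PBS 3, where none of 26 was above its mean and 13 had their lowest value, −0.39 in normal glucose 3 and −0.29 in PBS 1. In the 4 HG-exo libraries it lay between −0.14 and −0.08, and in the 4 high glucose libraries between 0.02 and 0.14. The median of the 325 pairwise Pearson correlations between abundant members was 0.80 over the 20 libraries, and 0.82 after the group means were removed. Between the other 127 members it was 0.05, and between the 16 abundant members and their own listed hosts 0.18. Of all members 107 averaged below 50 normalized counts, where counting noise pulls a correlation towards 0. The 0.05 therefore cannot show whether the other members move with the abundant ones. The libraries share a preparation protocol and differ in depth, and the part of either in these correlations was not tested.

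**Figure D2:**
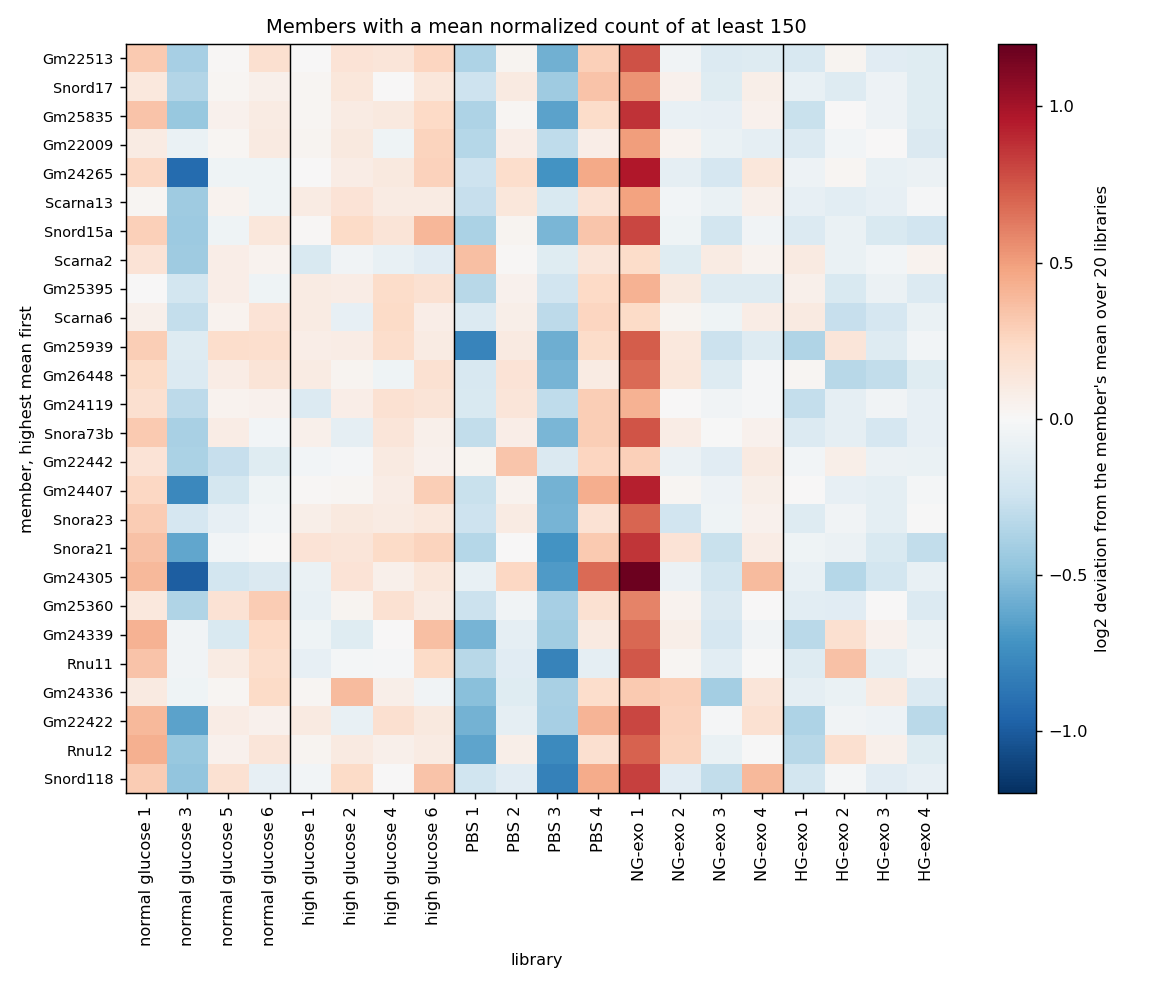
Log2 deviation of each of the 26 members averaging 150 or more normalized counts (rows, highest mean first) from its own mean, in each of the 20 libraries (columns, lines between groups). NG-exo 1 is high and PBS 3 and normal glucose 3 are low across nearly all rows.

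Several measures of the libraries moved with this. NG-exo 1 was the deepest library (56310712 reads), and PBS 1 and PBS 3 were the shallowest (34016445 and 34079968), but normal glucose 3, with 37244820 reads, was deeper than normal glucose 5. Gm23935, a gene annotated as an miRNA, took 15.2% of the reads in NG-exo 1, the highest share, 14.2% in PBS 4, 10.2% in PBS 3 and 8.78% in normal glucose 3, the lowest. Of 9 other structured RNAs, 6 were highest in NG-exo 1 (Vaultrc5, Rmrp, Rny1, Rny3, Rn7s1 and Rn7s2), whereas the 7SK RNA Rn7sk was highest in PBS 4, Terc in PBS 1 and Rpph1, the RNA of RNase P, in normal glucose 3. Vaultrc5, the vault RNA, had 8524 normalized counts in NG-exo 1, 2669.5 in PBS 3 and 3864 in normal glucose 3. Rmrp, the RNA of RNase MRP, had 37566 in NG-exo 1, 19656 in PBS 3 and 17648 in normal glucose 3. In the 17 other libraries Vaultrc5 lay between 3426 and 6648 and Rmrp between 22072 and 32373. The Y RNA Rny3 had 2371 in NG-exo 1, 910 in PBS 3 and 1187 in normal glucose 3. Rpph1 had 408317, 361150 and 425825 in the same libraries, and so did not go with the members. The hosts of the abundant members moved far less, with median deviations between −0.09 and 0.09 in every library. Their median had the sign of the members in NG-exo 1 (0.09, the highest), PBS 3 (−0.04) and normal glucose 3 (−0.05). In normal glucose 1 (−0.08) and PBS 4 (−0.01), where the members were high, it had the other sign. The part of depth, RNA quality and preparation in the member values was not tested. The 3 libraries dated alike as number 1 did not move together, since NG-exo 1 was the highest while PBS 1 and HG-exo 1 were below the mean.

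Class sums showed the same libraries. The summed count of all 153 members was 37019 ± 5718 (SD, n = 4) in normal glucose, 39207 ± 1876 in high glucose, 34544 ± 7199 with PBS, 40535 ± 10484 with NG-exo and 34259 ± 911 with HG-exo. The spread between libraries of PBS and NG-exo exceeded any difference between group means. Within NG-exo the sum was 56143 in library 1 and between 33519.7 and 36354 in the other 3. Numbered snRNA genes gave the largest class sum, with 13094 ± 2381 in normal glucose, 13899 ± 806 in high glucose, 11805 ± 2919 with PBS, 14224 ± 4594 with NG-exo and 11922 ± 657 with HG-exo. ScaRNA sums were 7596 ± 785, 8104 ± 189, 7677 ± 992, 8268 ± 1253 and 7404 ± 182 in the same order of groups. In each of the 6 classes the lowest normal glucose library was number 3, and the highest NG-exo library was number 1.

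**Figure D3:**
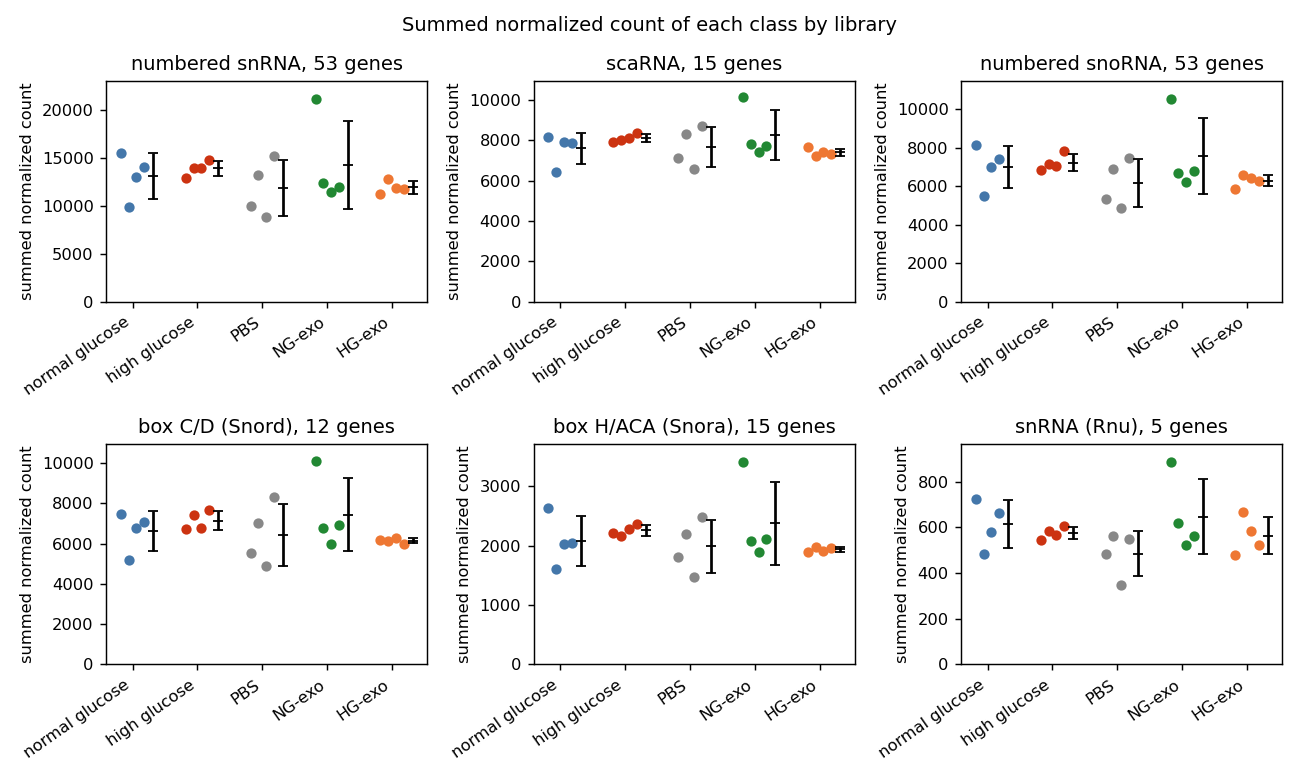
Summed normalized count of the 6 classes (vertical, from 0) in each of the 20 libraries, by group, with the group mean and SD as bars. NG-exo 1 is the highest NG-exo point in every class, and the 4 HG-exo libraries lie close together in most.

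High glucose was compared with normal glucose to ask whether the culture sugar changes these RNAs. Of 152 members tested, 1 was called at an adjusted p under 0.05 (0.658%), where 13.3% of all 14425 genes tested were called. Among genes with a mean of at least 50, 2 of 47 members were called against 17.1% of all such genes. The log2 fold changes of the members centred on 0.00, with 76 above and 76 below 0, and the median of all genes was also −0.00. At an unadjusted p under 0.05 there were 12 members, 9 of them higher in high glucose, against 25.4% of all genes. Groups did not overlap for 8 members (5.26%), against 16.3% of all genes.

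Scarna13, a box H/ACA scaRNA in Snhg10, was the called member. It had 1472, 1083, 1496 and 1402 normalized counts in normal glucose, against 1557, 1627, 1553 and 1551 in high glucose. All high glucose libraries lay above all normal glucose ones, but by little except against library 3. The log2 fold change was 0.22 (SE 0.07), with an adjusted p of 0.042 by limma. Without normal glucose 3 it fell to 0.11 with an adjusted p of 0.28, and edgeR and DESeq2 gave 0.20 with adjusted p of 0.056 and 0.074. Gm25395 of Atg16l1 came next, with 1177, 1003, 1239.6 and 1129 in normal glucose, against 1257, 1242, 1360.5 and 1331 in high glucose (log2 fold change 0.19, SE 0.07, adjusted p 0.053 by limma). Here too the groups did not overlap.

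Over the 26 abundant members the median of the log2 fold changes was 0.11 in this comparison, with 20 above 0. At an unadjusted p under 0.05 by limma there were 7 of the 26, all higher, against 25.4% of all genes. The U4 genes were among them. Gm24265 had 1722, 766, 1403 and 1399 in normal glucose, against 1452, 1546, 1573 and 1753 in high glucose, so that the groups overlapped and library 3 alone was far below. Its log2 fold change was 0.31 (SE 0.12, adjusted p 0.085 by limma), and that of its near twin Gm24407 was 0.30 (SE 0.13, adjusted p 0.12). Snord15a in the ribosomal protein gene Rps3 had 0.22 (SE 0.09, adjusted p 0.13), beside 0.23 for Rps3 itself. Scarna2, which has its own transcription unit, had 1434, 951, 1354 and 1322 in normal glucose, against 1129, 1244, 1203 and 1169.8 in high glucose. Without normal glucose 3 all high glucose values lay below the normal glucose ones, and Scarna2 was then the single called member, with a log2 fold change of −0.21 (SE 0.07, adjusted p 0.033). Without normal glucose 3 the median over all members moved from 0.00 to −0.09. Without normal glucose 1, the highest of its group, 11 of 150 members were called, 10 of them higher, against 2027 of 14420 genes.

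Of low members, Gm23172 in an intron of Mertk, the gene of a receptor for apoptotic cells, had 26, 49.1, 37.9 and 40.2 normalized counts in normal glucose, against 15, 22.2, 13.4 and 19.6 in high glucose. The groups did not overlap, and the log2 fold change was −1.07 (SE 0.38, adjusted p 0.058 by limma). Mertk itself changed by −0.40. The reads behind these values are few. The per-kilobase count of Gm23172 was 0.118 of that of the Mertk exons, and the difference between member and host gave an exact permutation p of 0.086. Snora31, a box H/ACA member in Tpt1, had 45.5, 39.5, 42.5 and 42.7 in normal glucose, against 57, 45.5, 86.4 and 72.9 in high glucose. The groups did not overlap but nearly touched, at a log2 fold change of 0.57 (SE 0.28, adjusted p 0.20 by limma), and the per-kilobase count of Snora31 was 0.0138 of that of the Tpt1 exons.

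By class, the median difference in high glucose was 0.12 on the log2 scale for Snora members (12 of 15 above 0), 0.10 for scaRNAs (10 of 15), −0.01 for numbered snoRNA genes (26 of 53), −0.05 for Snord members (5 of 12), −0.08 for numbered snRNA genes (21 of 52) and −0.13 for Rnu members (2 of 5). Within each class members went both ways. Snord members ranged from −0.67 to 0.24 and numbered snRNA genes from −1.22 to 0.71.

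HG-exo was compared with PBS and NG-exo combined, and with each alone, to ask what exosomes of high glucose macrophages do to recipient cells. Against the combined controls 0 of 150 members passed (adjusted p under 0.05 and a log2 fold change of at least 0.15 in size) by limma, against 0.201% of 14413 genes. DESeq2 called 1 and edgeR called 0, and 3 members had an unadjusted p under 0.05, against 10.5% of all genes. Against NG-exo 0 of 150 passed, against 0.0139% of all genes, with 12 at an unadjusted p under 0.05 against 6.54% of all genes, and edgeR and DESeq2 called 0. Against PBS 2 of 150 (1.33%) passed, against 4.84% of all genes, and 8 had an unadjusted p under 0.05 against 16.9%. Groups did not overlap for 4 members against PBS, where 10% of all genes did not, and for 5 against NG-exo, where 3.86% did not. HG-exo and NG-exo share the PBS libraries in these comparisons.

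Snora2b, a box H/ACA snoRNA, was lower with HG-exo. It had 54.5, 28.8, 29.3 and 37.7 normalized counts with PBS, 42.2, 40.6, 28.7 and 32.1 with NG-exo, and 9.06, 25.7, 10.8 and 11.9 with HG-exo. All 4 HG-exo values were below all 8 control values, though HG-exo 2 came close, and it was the one member whose groups did not overlap in the combined comparison (0.667%, against 1.17% of all genes). Against PBS the log2 fold change was −1.39 (SE 0.41, adjusted p 0.036, and 0.060 by edgeR), against NG-exo −1.36 (SE 0.41, adjusted p 0.44) and against both −1.37 (SE 0.34, adjusted p 0.071), all by limma. In the glucose experiment Snora2b had 23.2, 58.7, 29.8 and 22.6 in normal glucose, against 36.5, 26.5, 23 and 50.1 in high glucose, with wide overlap. Snora2b shares bases with an annotated exon of Kansl2, a gene of the NSL histone acetyltransferase complex, so reads of that exon can be counted for either gene or dropped. Kansl2 itself had log2 fold changes of −0.13 against PBS and 0.10 against NG-exo. The difference between member and host against the combined controls was −1.36 with an exact permutation p of 0.0061, and an adjusted p of 0.41 over the 68 such tests. Snora2b was chosen for this test by its small p in the same libraries, so the permutation p is no separate evidence.

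Gm24771, an snoRNA gene in an intron of Vps13b and 84.2% identical to Snora17, was higher with HG-exo than with PBS. It had 6.33, 7.75, 3.66 and 1.98 normalized counts with PBS, 13.6, 9.03, 28.7 and 7.48 with NG-exo and 30.2, 18.4, 21.6 and 22 with HG-exo. The HG-exo and PBS groups did not overlap, while NG-exo overlapped both. The log2 fold change against PBS was 2.11 (SE 0.59, adjusted p 0.023 by limma), from only 2 to 7 whole reads in each PBS library. In the glucose experiment Gm24771 ranged from 14.9 to 41.9 in normal glucose and from 8.47 to 31.6 in high glucose, so the PBS libraries were below that range. Without PBS 4, HG-exo 1, HG-exo 3 or HG-exo 4 neither Gm24771 nor Snora2b was called, without PBS 1 Gm24771 alone was, and without the 3 libraries dated as number 1 no member was. Blocking on the date left both called.

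**Figure D4:**
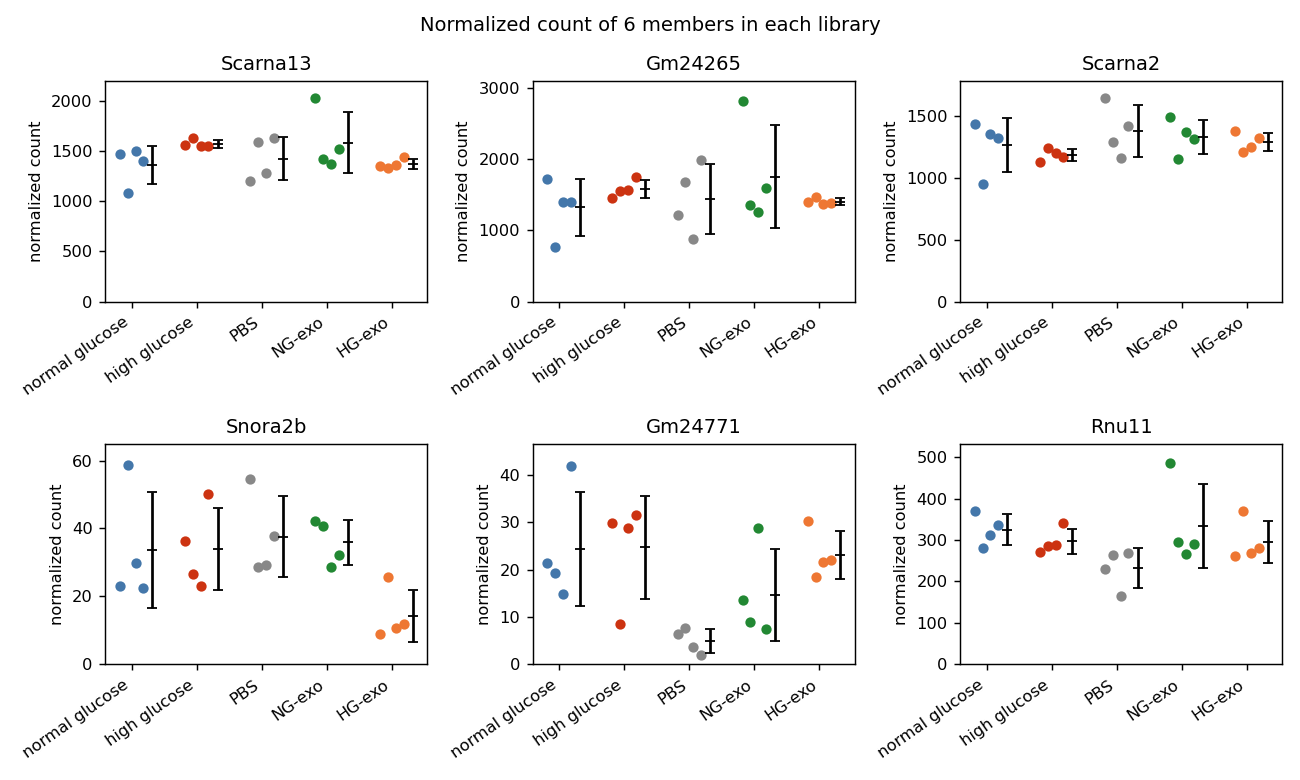
Normalized count (vertical, from 0) of 6 members in each library by group, with the group mean and SD as bars. Snora2b is lowest with HG-exo, Gm24771 is lowest with PBS, and for Gm24265, Scarna13 and Rnu11 NG-exo 1 is the highest of all 20 points.

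All 26 abundant members had a negative log2 fold change with HG-exo against NG-exo, with a median of −0.22. Of these, 10 had an unadjusted p under 0.05 by limma, against 6.54% of all genes. The 26 rose and fell together between libraries (median correlation 0.80). A shared sign over them is therefore not 26 separate results, in any of the comparisons. Snord17 had 7066, 5036, 4382 and 5087 with NG-exo and 4559, 4372, 4666 and 4388 with HG-exo, so that library 1 stood apart and the rest overlapped (log2 fold change −0.24, SE 0.10, adjusted p 0.68 by limma). Gm22513 had 12781, 7334, 6713 and 6758 with NG-exo and 6599.5, 7742, 6853 and 6814 with HG-exo, so that again only library 1 stood above the HG-exo range. Without NG-exo 1 the number of members at an unadjusted p under 0.05 fell from 12 to 2, and the median over all members moved from −0.13 to 0.01. Groups did not overlap for Snora2b, Gm25631, Gm22422, Snora73b and Gm24119. Gm25631, an snoRNA gene in an intron of Rnf180, was the one of them that was higher with HG-exo, at 24.2, 20.2, 16.7 and 31.2 beside 4.78, 9.93, 11.8 and 5.35 with NG-exo (1.47, SE 0.53, adjusted p 0.60), while with PBS it had 16.5, 27.7, 11 and 10.9. Snora73b, an RNA of the U17 family that acts in cleavage of the ribosomal RNA precursor, had 1115, 699.8, 657 and 685 with NG-exo and 589.7, 611, 573 and 618 with HG-exo (log2 fold change −0.37, SE 0.13, adjusted p 0.62).

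NG-exo was compared with PBS as a control for exosomes as such. By limma 0 of 150 members were called, against 3% of all genes, with 16 at an unadjusted p under 0.05, all higher with NG-exo, against 13.5% of all genes. EdgeR and DESeq2 called 0. Groups did not overlap for 4 members, against 8.27% of all genes. The median over all members was 0.21, and 0.28 over the abundant ones, with 24 of 26 above 0. Rnu11 had 230.5, 265, 166 and 269 with PBS and 486, 295, 265 and 289.8 with NG-exo, and the ranges overlapped slightly (log2 fold change 0.50, SE 0.17, adjusted p 0.11). Gm25835 had 2074, 2729, 1718 and 3128 with PBS and 4914, 2529, 2509.9 and 2779 with NG-exo, with broad overlap outside NG-exo 1 (0.38, SE 0.14, adjusted p 0.15). Rnu12 followed Rnu11, at 0.50 (SE 0.20, adjusted p 0.20). Without NG-exo 1 the median over all members fell to 0.07 and 6 members had an unadjusted p under 0.05. Without PBS 4, the highest PBS library, 3 of 147 members were called, all higher, against 379 of 14408 genes. By class the medians against PBS were 0.35 for Snord members (10 of 12 above 0), 0.29 for numbered snoRNA genes (37 of 51), 0.18 for numbered snRNA genes (31 of 52), 0.15 for scaRNAs (10 of 15), 0.04 for Rnu members (4 of 5) and −0.01 for Snora members (7 of 15). The lowest p belonged to Gm26121, a U1-like gene in an intron of Zzef1, with 6.33, 0, 11 and 6.95 with PBS and 12.8, 31.6, 21.1 and 20.3 with NG-exo (2.06, SE 0.66, adjusted p 0.089).

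**Figure D5:**
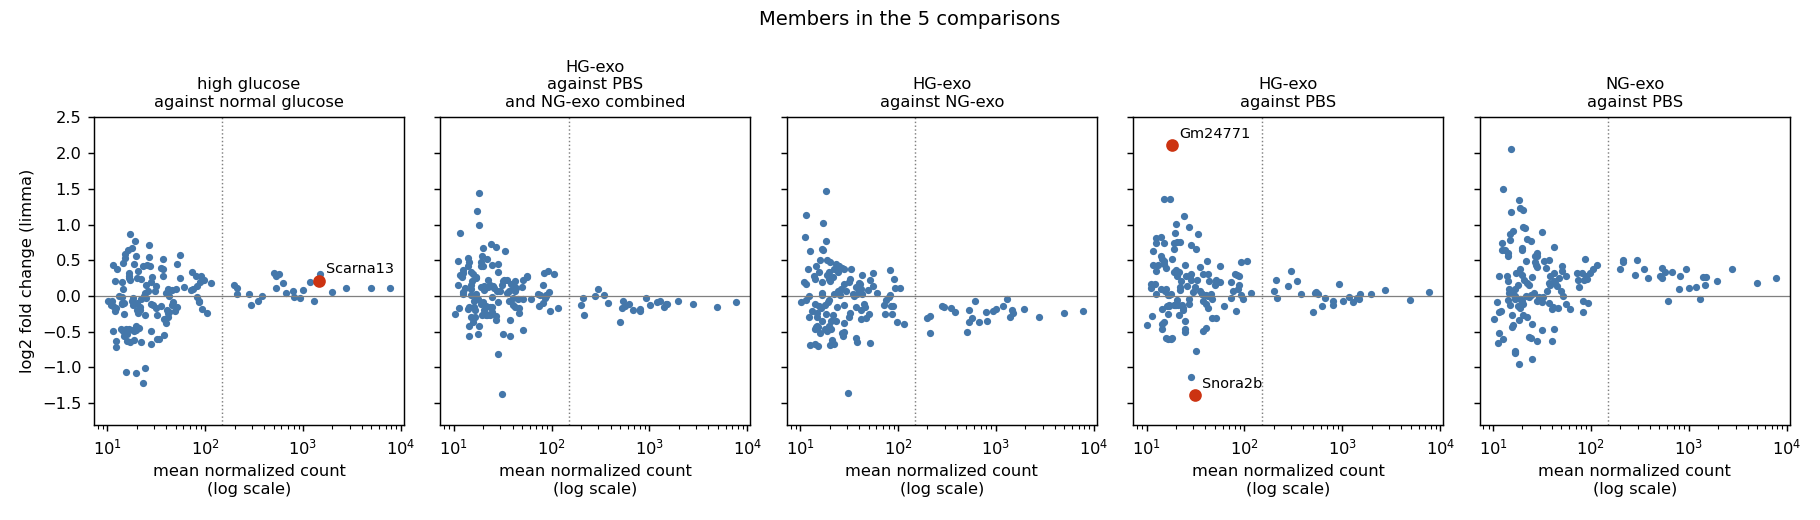
Log2 fold change by limma (vertical) against the mean normalized count (horizontal, log scale) for the members tested in each of the 5 comparisons, with called members in red and a dotted line at 150. Right of the line the points lie below 0 for HG-exo against NG-exo and mostly above 0 for NG-exo against PBS, while left of it they scatter around 0 more widely.

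The named members were also set against their hosts. Over 34 named members with a listed host, member-minus-host differences gave no exact permutation p under 0.05 in high glucose (smallest 0.057, where the design allows 0.029). In the combined HG-exo comparison 3 members had one, Snora2b, Gm24771 and Gm25631, and none passed after adjustment over the 68 tests. These 3 were named because they had the smallest p of all members in that same comparison. Their small permutation p was therefore favoured by the choice, which the adjustment does not cover. In high glucose 29 of the 115 distinct listed hosts tested were called (25.2%, against 13.3% of all genes), while none of the 122 tested members with a listed host was itself called. These shares were not matched for abundance, and among genes averaging at least 50 the share called was 17.1%. With HG-exo against PBS 6 of 113 hosts were called (5.31%, against 4.84% of all genes). With NG-exo against PBS 4 of 113 hosts were called (3.54%, against 3% of all genes), and in the other comparisons 0. The difference in share between hosts and members was not tested.

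Genes that make and bind these RNAs were counted in 10 lists. In high glucose 11 of 116 tested genes were called (9.48%), against 13.3% of all genes, and with HG-exo against PBS 2 of 116 (1.72%), against 4.84%. In high glucose 0 of 5 box C/D core protein genes passed the test, and of 4 box H/ACA core protein genes Dkc1, which encodes the pseudouridine synthase dyskerin, rose from 273 ± 24.5 to 382 ± 60.7 normalized counts (SD, n = 4, log2 fold change 0.48, adjusted p 0.0075 by limma). Of 11 tested snoRNP assembly genes 2 rose, Nolc1 by 0.37 and Tcof1 by 0.27, both encoding nucleolar phosphoproteins. Among 16 Sm and LSm genes Snrpb rose by 0.30 and Lsm8 fell by 0.46. None of 20 U1, U2, U4/U6, U5 and minor spliceosome protein genes passed. Of 13 tested SMN complex and Cajal body genes Ddx20 (0.28) and Strap (0.21) rose, and of 23 snRNA transcription and processing genes Ints7 fell by 0.19. Of the 4 7SK protein genes Hexim1 rose by 0.15, and of the 9 other structured RNAs Rn7sk rose by 0.20 (adjusted p 0.00039) and Rn7s1 by 0.46. Rn7s1 had 434, 235, 401 and 490.1 in normal glucose, against 475, 502, 537 and 555 in high glucose, and without normal glucose 3 its log2 fold change was 0.23 with an adjusted p of 0.16. It also lost the call without high glucose 4 or 6, and Dkc1 lost it without high glucose 6 (0.38, adjusted p 0.066). Ddx20, Hexim1 and Ints7 each lost the call on leaving out any of 5 of the 8 libraries and Lsm8 any of 6, with adjusted p up to 0.16, 0.13, 0.15 and 0.15. None of 11 tested noncoding host genes passed. With HG-exo against PBS Tcof1 fell by 0.17 and Snrnp70, which encodes the U1 70K protein, fell by 0.21 (adjusted p 0.0021). Tcof1 lost that call without PBS 1, HG-exo 1 or HG-exo 3 (adjusted p up to 0.078). In the other 3 comparisons no gene of these lists passed. The list medians were between −0.02 and 0.12 in high glucose, where the median of all genes was −0.00.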

How the data were processed

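Total RNA was made into libraries with a SMARTer Stranded Total RNA-Seq Pico kit (10 ng input, fragmentation, ribosomal cDNA depletion) and sequenced as paired reads of 100 bases. Per the study's methods, reads were aligned with STAR 2.5.3a (GRCm38), counted by strand with FeatureCounts 2.0.1 and scaled with DESeq2 1.20.0. The annotation used for counting is not given in the sources used here. The deposited values are counts divided by a size factor per library, a signal with whole reads behind it. Whole reads were recovered by dividing by the smallest step of a library.

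Members were matched to GENCODE M21 by Ensembl identifier, and near-identical genes were searched with blastn 2.17.0 among annotated transcripts only. Members and lists were chosen with earlier results of these data known. Named members were the 5 most abundant of each class, called members, the 3 of smallest p in each comparison, members that share a host, and a fixed list of 19 names, of which 8 were listed. The 5 most abundant numbered snRNA and numbered snoRNA genes were added after their values were seen. A host was a gene on the same strand that contains the member, and where several did, the listed one of highest mean.

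The main test was limma 3.58.1 with a variance trend on log2 (value + 1), for genes averaging 10 or more, with the adjustment of Benjamini and Hochberg across every gene of the fit. It was tested on simulated data. Alternatives were pseudocounts of 0.5 and 5, other filters, TMM and quantile scaling, edgeR's quasi-likelihood test and DESeq2 on recovered reads, a replicate block and leaving out each library. Exosome arms shared 4 dates in the labels, and libraries of one date correlated by 0.011 on average after group means were removed (range −0.019 to 0.054, 12 pairs). No 2 libraries of a group were alike within sampling noise (chi-square per degree of freedom at least 5.2 over 30 pairs). A small member has few reads, with a median of at least 11 per library, which limits its precision.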

Additional observations from a re-analysis of the deposited data

Results flagged for a closer look

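Of 175 groups of 4 libraries examined (35 sums and members in 5 groups), 14 held a library far from the other 3 by Dixon's test. By chance the test flags about 1 in 20 groups, but these 175 are not independent. Sums contain the single members, and abundant members move together, so that rate is no yardstick for the 14. NG-exo 1 accounts for 9 of them. Its summed normalized count was 56143 for all members (others 33519.7 to 36354), 3410.1 for box H/ACA (1898 to 2118), 21090 for numbered snRNA genes (11420 to 12380), 10543 for numbered snoRNA genes (6250.3 to 6807) and 10134 for scaRNAs (7436 to 7795). Its values of single members were 2401 for Snord15a (1179 to 1339), 1115 for Snora73b (657 to 699.8), 486 for Rnu11 (265 to 295) and 4914 for Gm25835 (2509.9 to 2779). Normal glucose 3 was far below its group for the scaRNA sum, at 6435 against 7881 to 8168.

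The other 4 were single values. Snora31 had 97.5 in PBS 1 (others 39.7 to 46.5) and 31.3 in NG-exo 3 (others 56 to 59.8). Scarna13 had 1627 in high glucose 2, beside 1551 to 1557 in the other 3. Gm24771 had 8.47 in high glucose 2, beside 28.8 to 31.6.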

How the results depend on the processing

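The count of called members was small, so single settings moved it. In high glucose 1 member was called, and the count was 5 at an adjusted p under 0.1, 2 with a pseudocount of 5, 2 with a mean of at least 50, and 0 with a log2 fold change of at least 0.5, with quantile scaling, with edgeR or with the replicate block on the 2 shared library numbers, which mark no shared source in the labels. DESeq2 called 1, Gm23172 and not Scarna13, and a fit without the variance trend called 1 that was lower. Leaving out 1 library gave 0 to 11, with 11 without normal glucose 1, where 2027 of 14420 genes were called. The count was 2 without normal glucose 5, and 0 without normal glucose 6 or high glucose 1, 2 or 4. For HG-exo against the combined controls the count of 0 became 1 (Snora2b) at an adjusted p under 0.1, with DESeq2, or without NG-exo 3, so it was 0 to 1 over the libraries left out. For HG-exo against PBS the count of 2 became 0 with a mean of at least 50, 1 with edgeR, and 0 without the 3 libraries of the first date, an alternative added after the data were seen, and it was 0 to 2 over single libraries left out. For NG-exo against PBS it became 1 at an adjusted p under 0.1 and was 0 to 3 over libraries left out. It was 1 without PBS 3 and 3 without PBS 4, where 379 of 14408 genes were called. The block on the date changed no call in the exosome comparisons. The count for HG-exo against NG-exo was 0 under each alternative run. For the 3 members of smallest p in each comparison, the fold change kept its direction wherever it was recomputed under these alternatives. That check did not cover the other named members. The log2 ratios of class sums moved by less than 1 SD of the libraries under TMM or plain library-size scaling, and on removal of members that overlap exons, have near-identical genes or are the most abundant. For all members the ratio of high to normal glucose nevertheless went from 0.08 to −0.02 without normal glucose 3. The causes were not tested. Of the members, 16 are shorter than the 100 bases of a read.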
